A study of Mus musculus with 8 samples.

Results

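The tetraspanins are a family of small proteins that cross the membrane repeatedly, with a short and a long loop outside the cell. They gather integrins, proteases and adhesion proteins into membrane patches, and they sort cargo into endosomes and exosomes. In mouse muscle, Cd9 and Cd81 are known to restrain the fusion of myoblasts into myotubes, and in human muscle CD82 marks satellite cells. The members were taken by symbol: every gene named Tspan with a number, with Cd9, Cd37, Cd53, Cd63, Cd81, Cd82 and Cd151. That gave 27 genes out of 52139 in the table of the GBC pair and the same 27 genes out of 52338 in the Re table. The symbols alone decided membership, but the family was taken up after the differences in these libraries, such as that of Cd9, were known. The differences below are therefore descriptions of the members.

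The libraries are RNA sequencing of wild-type cells of the C2C12 line, which the labels give as immortalised myoblasts of the mouse. They fall into 4 groups: cells given ginseng berries concentrate (GBC, n = 1) with cells given DMSO, a solvent (n = 1), and cells given ginsenoside Re, a ginseng saponin (n = 3), with cells given DMSO (n = 3). Doses and times are not in the labels, and nothing there says whether the replicates of a group came from separate cultures, so the spread between them may be technical. The deposited unit is log2(TPM + 1), where TPM is a transcript level scaled by gene length and library, and the read depth is unknown. Levels below are in TPM. Every difference is in units of log2(TPM + 1), a scale that compresses the change of a low gene.

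The listed TPM summed to 479938 in the GBC library and 403442 in its DMSO library, and to 642180 to 743269 in the Re table. Most genes shared a shift: the median over all genes was 0.320 for GBC minus DMSO and 0.105 for Re minus DMSO as deposited, and -0.068 and 0.000206 after median-of-ratios scaling. The marker check set the GBC pair apart from its label. Of 10 myoblast markers, 6 were listed at 0 in both libraries of the pair. Of these, the muscle regulators Myod1 and Myf5 and the cadherin Cdh15 were at 9.95 to 34.2 TPM in the Re table. The others, Pax7, Msc and Myog, were at most 0.3 TPM there too, so their zeros do not set the pair apart. Des, Chrna1 and Itga7 were at most 1.92 TPM in the pair and at least 24.7 TPM in the Re table. Vcam1 was closer, at 7.49 TPM in GBC and 6.05 TPM in its DMSO library, against 10.4 to 12.0 TPM. The 10 summed to 9.35 TPM in the GBC library and 8.16 TPM in its DMSO library. They summed to 244 to 253 TPM in the Re libraries and 236 to 262 TPM in their DMSO libraries. The summed level of 8 fibroblast and mesenchymal markers was 367 TPM in the GBC library and 205 TPM in its DMSO library, led by the collagen gene Col1a2 at 229 TPM in GBC and 112 TPM in DMSO, with Col1a1 at 46.6 TPM in GBC and 10.9 TPM in DMSO. Thy1, of the same list, had 22.1 TPM in GBC and 23.8 TPM in DMSO, and at most 0.08 TPM in the Re table, where the list summed to 250.4 to 287 TPM in Re and 222 to 285 TPM in DMSO. Col1a2 led the list in the Re table as well, at 191 to 250 TPM. Pdgfra and Ly6a were higher in the pair than in the Re table. Dcn, Lum and Postn, of the same list, were under 1 TPM in both libraries of the pair. Sums of 8 leukocyte, 5 endothelial and 5 epithelial markers were at most 1.95 TPM in any library. Since the 2 tables were normalised separately, levels set across them are descriptions too. In bulk libraries fewer cells of a type and less RNA per cell cannot be told apart.

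As a pool, the family held 327 TPM in the GBC library and 238 TPM in its DMSO library, which is 0.0681% and 0.0589% of the listed TPM. In the Re table the pool was 1019 ± 48.1 TPM in Re and 993 ± 60.2 TPM in DMSO (SD, n = 3 each), or 0.139% to 0.144% and 0.143% to 0.146% of the listed TPM. A few members made up most of it. The 4 most abundant members held 58.7% of the pool in the GBC library, 62.3% in its DMSO library, 70.5% to 71.6% in the Re libraries and 70.5% to 73.6% in their DMSO libraries. Cd81 was the most abundant member in both libraries of the pair, with 22.2% of the pool in GBC and 29.6% in DMSO, whereas Cd63 came first in all 6 libraries of the Re table, with 26.8% to 27.8% in Re and 28.3% to 30.8% in DMSO.

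**Figure D1:**
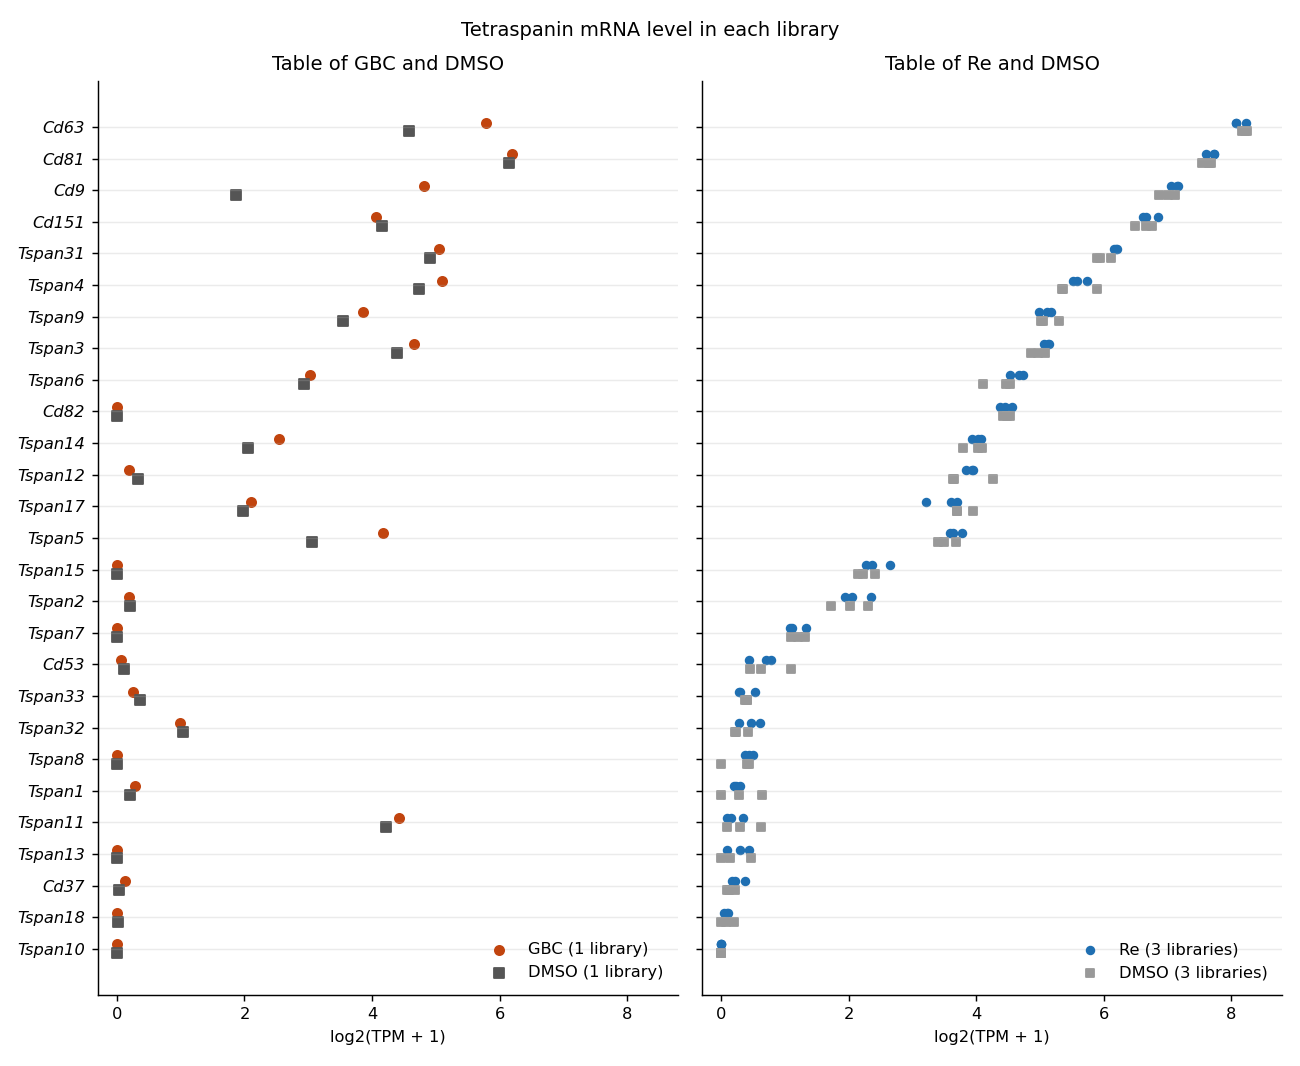
Level of each of the 27 tetraspanin genes in every library, as log2(TPM + 1), in the table of GBC and DMSO on the left and the table of Re and DMSO on the right, each point standing for 1 library and genes sorted by their mean TPM in the Re table. Cd9, Cd63 and Tspan5 stand out for the gap between GBC and DMSO, and Cd82, Tspan12 and Tspan11 for their different place in the 2 tables.

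The order of levels in the Re table was steep. Over its DMSO libraries Cd63, Cd81, Cd9, Cd151, Tspan31, Tspan4 and Tspan9 followed each other with means of 295, 196, 127, 98.95, 62.4, 45.9 and 33.9 TPM, and between any neighbours of these 7 the ranges over the 3 libraries did not overlap. Further down, Tspan9 and Tspan3, Cd82 and Tspan6, Tspan14 and Tspan12, Tspan12 and Tspan17, and Tspan15 and Tspan2 were neighbours whose DMSO ranges did overlap. At the low end, 10 members had a mean under 1 TPM in the Re table (Cd53, Tspan33, Tspan32, Tspan8, Tspan1, Tspan11, Tspan13, Cd37, Tspan18 and Tspan10), and none of them exceeded 1.13 TPM in any library there. In the pair 13 members had a mean under 1 TPM, none above 0.28 TPM. The 2 sets shared 8 members, and 12 members reached a mean of 1 TPM in both tables. Among the low ones were Cd53 and Cd37, tetraspanins of white blood cells: GBC gave 0.04 TPM of Cd53 and 0.09 TPM of Cd37, and its DMSO library 0.08 TPM and 0.02 TPM. Tspan32, also of blood cells, was at 0.98 TPM in GBC and 1.06 TPM in DMSO, and Tspan13 did not exceed 0.39 TPM anywhere. Tspan8 and Tspan1, best known from epithelia, were at most 0.42 and 0.56 TPM in any library, and Tspan10 was listed at 0 in all 8. The exons of Cd37 overlap those of Tead2, a gene on the opposite strand at up to 77.5 TPM, in the GENCODE M21 annotation.

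Among the tetraspanins of the plasma membrane, Cd9 had the largest difference of any member. It was at 27.0 TPM in the GBC library, against 2.63 TPM in its DMSO library, a 10.3-fold ratio and a difference of 2.95, or 2.64 above the median of genes averaging 5 TPM or more. Cd9 ranked 15 from the top among those 6639 genes, and 15 of 6593 after median-of-ratios scaling, where its difference was 2.55. Cd9 was more abundant in the Re table and even across its libraries, at 132, 142 and 140 TPM in Re, against 137, 116 and 128 TPM in DMSO. The Re and DMSO values overlapped, with a difference of 0.12 (95% confidence interval -0.09 to 0.33) and an adjusted p of 0.689 in limma. The widest gap between 2 libraries of 1 group there was 0.24 on the log2 scale. Its pseudogene Cd9-ps was listed at 0 in all 8 libraries.

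Cd81, the close relative of Cd9 that shares its partner proteins, did not follow it. It was at 72.5 TPM in the GBC library, against 70.3 TPM in its DMSO library, a difference of 0.05 as deposited and -0.42 after median-of-ratios scaling. The Re libraries had 193, 210.0 and 212 TPM of Cd81, against 205, 184 and 199 TPM in the DMSO libraries, and overlapped. Among the 27 members Cd9 ranked 5 in the GBC library and 13 in its DMSO library, while Cd81 ranked 1 in both.

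Cd151, which binds laminin-binding integrins, was at 15.8 TPM in the GBC library, against 16.8 TPM in its DMSO library, a difference of -0.08 as deposited and, after median-of-ratios scaling, of -0.53, the lowest of the 14 members averaging 1 TPM or more. Its levels in the Re table were 100.1, 96.8 and 114 TPM in Re, against 100.4, 89.1 and 107 TPM in DMSO, with overlapping groups. Cd82, a suppressor of metastasis in human tumours, was listed at 0 in both libraries of the pair. Re libraries had 20.9, 19.8 and 22.6 TPM of Cd82, against 22.2, 21.4 and 20.5 TPM in DMSO libraries, with overlapping groups and a difference of -0.02 (95% confidence interval -0.24 to 0.20). No other member that reached 10 TPM in all 6 libraries of the Re table, 12 in all, was listed at 0 in the pair. Over all genes 38 of 6453 did so, which is 0.589%. Among genes that every cell uses, the ribosomal protein gene Rps16 was at 97.1 TPM in GBC and 2.22 TPM in DMSO, against 905 to 1119 TPM in the Re table. It was the most extreme of those looked at. The others were less far below the Re table, such as Gapdh at 697 TPM in GBC and 456 TPM in DMSO, against 1968 to 2684 TPM. The exception was Rplp0, higher in the pair at 1964 TPM in GBC and 1779 TPM in DMSO, against 1411 to 1754 TPM. Whether this bears on Cd82 was not tested.

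Cd63, the tetraspanin of late endosomes, lysosomes and exosomes, was the second of 3 members past a difference of 1 in the pair. It was at 54.3 TPM in the GBC library, against 22.9 TPM in its DMSO library, a 2.37-fold ratio and a difference of 1.21, ranked 168 of 6639. After median-of-ratios scaling the difference was 0.76 and after rescaling both libraries to the same sum it was 0.97. Re libraries had 267, 269 and 299 TPM of Cd63, against 297, 286 and 302 TPM in DMSO. The third Re library lay among the DMSO values, so the groups overlapped. The difference was -0.09 (95% confidence interval -0.28 to 0.10), with an adjusted p of 0.727 in limma, and -0.20 after median-of-ratios scaling, where the 3 Re values lay below the 3 DMSO values. The pseudogene Cd63-ps was at 0.45 TPM in the GBC library and 0.19 TPM in its DMSO library, and at 0.53 to 1.16 TPM in Re and 0.36 to 1.68 TPM in DMSO, far under Cd63 in each.

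The third member past a difference of 1 was Tspan5, of the TspanC8 branch, whose members carry the protease ADAM10 to the cell surface. Tspan5 was at 17.0 TPM in the GBC library, against 7.30 TPM in its DMSO library, a 2.33-fold ratio and a difference of 1.12, or 0.69 after median-of-ratios scaling. In the Re table it was at 11.4, 11.0 and 12.7 TPM in Re, against 11.9, 9.50 and 10.3 TPM in DMSO, overlapping, with a difference of 0.14 (95% confidence interval -0.14 to 0.41). Among its branch, Tspan14 came next in the pair, at 4.82 TPM in GBC and 3.15 TPM in DMSO, a difference of 0.49, and in the Re table it had 15.8, 14.3 and 15.3 TPM in Re, against 16.1, 12.8 and 15.4 TPM in DMSO. Tspan17 was at 3.30 TPM in GBC and 2.92 TPM in DMSO. It had the lowest difference of the 17 members tested in the Re table, at 11.2, 8.22 and 11.96 TPM in Re, against 11.91, 14.5 and 11.99 TPM in DMSO, a difference of -0.28 (95% confidence interval -0.64 to 0.08) and an adjusted p of 0.687 in limma. The second Re library was the lowest of the 6 and the second DMSO library the highest, and without the second Re library the difference was -0.13. Tspan15 was listed at 0 in both libraries of the pair and ran from 3.42 to 5.23 TPM in the Re table. Tspan33 stayed at or under 0.45 TPM in all 8 libraries. In sum the 6 members of the branch held 25.3 TPM in GBC and 13.7 TPM in DMSO, and 37.9 to 45.4 TPM in Re and 41.5 to 43.6 TPM in DMSO. Adam10 itself was at 8.35 TPM in GBC and 3.98 TPM in DMSO, a difference of 0.91, the largest of the partner protein genes in the pair.

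**Figure D2:**
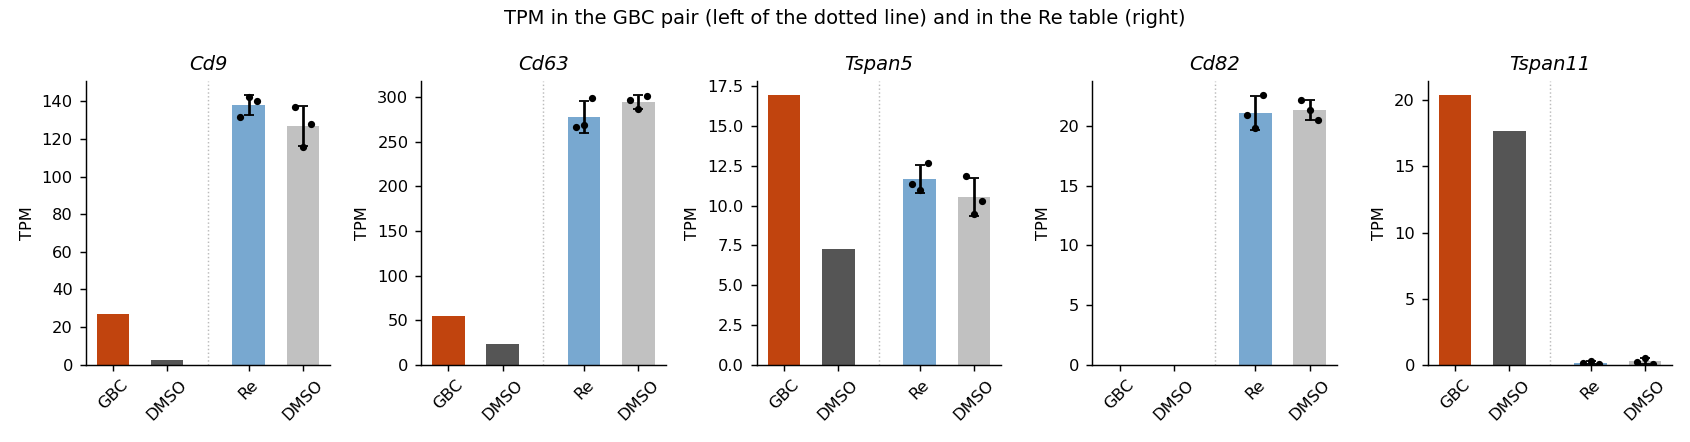
TPM of Cd9, Cd63, Tspan5, Cd82 and Tspan11, with GBC and its DMSO library as single bars left of the dotted line, and Re and DMSO to its right as means with SD bars and a point for each of the 3 libraries. GBC lies above DMSO for Cd9, Cd63 and Tspan5, the Re and DMSO points overlap in all 5 panels, and Cd82 and Tspan11 are each near 0 in only 1 of the tables.

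Tspan11 showed the reverse of Cd82 across the tables. It was at 20.4 TPM in the GBC library and 17.7 TPM in its DMSO library, a difference of 0.20 as deposited and -0.25 after median-of-ratios scaling. In the Re table it was at 0.11, 0.27 and 0.07 TPM in Re, against 0.23, 0.54 and 0.07 TPM in DMSO. Of 3506 genes at 10 TPM or more in both libraries of the pair, 36 were under 1 TPM in all 6 libraries of the Re table, which is 1.03%, and Tspan11 was the member among them, of 8 members at that level in the pair. The next gene to Tspan11 on chromosome 6 in RefSeq is Tspan9, with 0 protein-coding genes in between, and Tspan9 was present in both tables. It had 13.6 TPM in the GBC library, against 10.6 TPM in its DMSO library, and 30.6, 35.2 and 33.5 TPM in Re, against 38.3, 31.4 and 32.0 TPM in DMSO, with overlapping groups. Tspan4, a marker of migrasomes, was at 33.1 TPM in GBC, against 25.7 TPM in DMSO, a difference of 0.35. Its Re values of 46.7, 44.7 and 52.2 TPM lay inside the range of the DMSO values of 58.1, 39.5 and 40.2 TPM. Its exons overlap those of Chid1 on the opposite strand, a gene at up to 14.9 TPM.

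Among the other abundant members were Tspan31, Tspan6 and Tspan3. Tspan31, formerly named for its amplification in sarcoma, was at 32.0 TPM in GBC and 29.1 TPM in DMSO. Its Re-table levels were 70.7, 72.4 and 72.5 TPM in Re, against 68.4, 60.1 and 58.7 TPM in DMSO. The lowest Re value exceeded the highest DMSO value, with a difference of 0.20 (95% confidence interval -0.000866 to 0.41) and an adjusted p of 0.687 in limma, and of 0.09 after median-of-ratios scaling, where the groups overlapped. The exons of Tspan31 overlap those of Cdk4 on the opposite strand in GENCODE M21, and Cdk4 reached 259 TPM in the Re table; whether the counting used strand is not given in the sources used here, so reads of the 2 genes may not be told apart. Tspan6 had the largest positive difference in the Re table with all 6 libraries, at 24.4, 22.1 and 25.7 TPM in Re, against 21.0, 16.2 and 22.1 TPM in DMSO, a difference of 0.28 (95% confidence interval -0.03 to 0.59) with an adjusted p of 0.687 in limma. The groups met at 22.07 TPM in the second Re library and 22.1 TPM in the third DMSO library. Without DMSO replicate 2 the difference of Tspan6 was 0.15, under the 0.18 of Tspan31. In the pair Tspan6 was at 7.16 TPM in GBC and 6.63 TPM in DMSO. Tspan3 was at 24.1 TPM in GBC and 19.9 TPM in DMSO, and at 34.0, 32.5 and 34.4 TPM in Re, against 32.7, 28.1 and 30.3 TPM in DMSO, where the second Re library lay below the first DMSO library. Tspan12, a co-receptor of Norrin and Frizzled signalling, was another member of uneven place: it was at 0.14 TPM in GBC and 0.26 TPM in DMSO, and at 14.5, 13.3 and 14.3 TPM in Re, against 18.1, 11.5 and 11.4 TPM in DMSO, whose range encloses the Re values. Of 6453 genes at 10 TPM or more in all 6 libraries of the Re table, 139 were under 1 TPM in both libraries of the pair, which is 2.15%. Among the 12 members at that level, 2 did so, Cd82 and Tspan12. Tspan2, known from myelin, and Tspan7, known from neurons, were at 2.31 to 4.08 and 1.11 to 1.51 TPM in the Re table and at most 0.15 TPM in the pair.

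Set against all genes, the 12 members at 1 TPM or more in both groups of DMSO libraries had 1.45 to 48.3 times the TPM in the Re table that they had in the pair, where the median of 9966 genes was 2.45. Cd9, at 48.3, had a higher ratio than 99.9% of those genes, Cd63, at 12.9, than 98.3%, and Tspan5, at 1.45, than 19.4%. Genes under 1 TPM in the DMSO library of the pair were left out, and this cut removes genes with high ratios. Among them were Cd82, listed at 0 there, and Tspan12, whose ratio was 52.6. The percentages therefore hold only among the genes kept. Of the 3 members past a difference of 1 between GBC and its DMSO library, Cd9 and Cd63 were far below their Re-table level in that DMSO library and Tspan5 was not. The same single DMSO library enters both the difference and this ratio. A low value there raises both, so the ratio is no separate evidence on these members. Cd9 and Cd63 stayed below their Re-table level in the GBC library as well. So did members not past a difference of 1, such as Cd81 and Cd151, and no share over all genes was taken for the GBC library.

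By count, 3 of the 11 members averaging 5 TPM or more in the pair differed by at least 1, all higher in GBC. Over all genes 346 of 6639 did so, which is 5.21%, and 4.97% were higher. With 1 library a group there is no test and no replicate check. The fibroblast marker sum and the ribosomal Rps16 also differed between the 2 libraries, by the values given above, and their part in the members' differences was not tested. The 14 members averaging 1 TPM or more had a median difference of 0.23, with 12 above 0, against 0.320 over 10989 genes. After median-of-ratios scaling only Cd9 of the 11 was past a difference of 1, against 1.71% of all genes, the members' median was -0.20 and 4 of 14 were above 0 (Cd9, Cd63, Tspan5 and Tspan14). Without Cd9, Cd63 and Tspan5 the pool was 1.12 times as large in GBC as in DMSO, against 1.19 times for all listed TPM and 1.38 times for the whole family.

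Between Re and DMSO, 0 of the 17 members tested passed an adjusted p of 0.05 in limma, against 0% of 11967 genes (0 genes), with 0 members and 745 genes at an unadjusted p under 0.05 and 0 members by limma without trend. The lowest adjusted p of a member was 0.687. The other 10 members had a mean under 1 TPM and were not tested. Members whose 3 Re and 3 DMSO values did not overlap numbered 1 of 17, Tspan31, against 15% of all genes, or 13.7% with the Re values above. After median-of-ratios scaling it was 3 of 17 (Cd63, Cd82 and Tspan17, all lower in Re), against 10.2% of all genes. The members' median difference was 0.07 with 12 of 17 above 0, against 0.105 over all genes. Leaving out DMSO replicate 2 gave a member median of -0.0151, leaving out Re replicate 3 gave 0.03, Re replicate 2 0.10 and DMSO replicate 1 0.11. With 1 library left out, fewer values are left to separate, and 2 to 7 members did not overlap (7 of 17 when DMSO replicate 1 was dropped, against 37.2% of all genes).

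**Figure D3:**
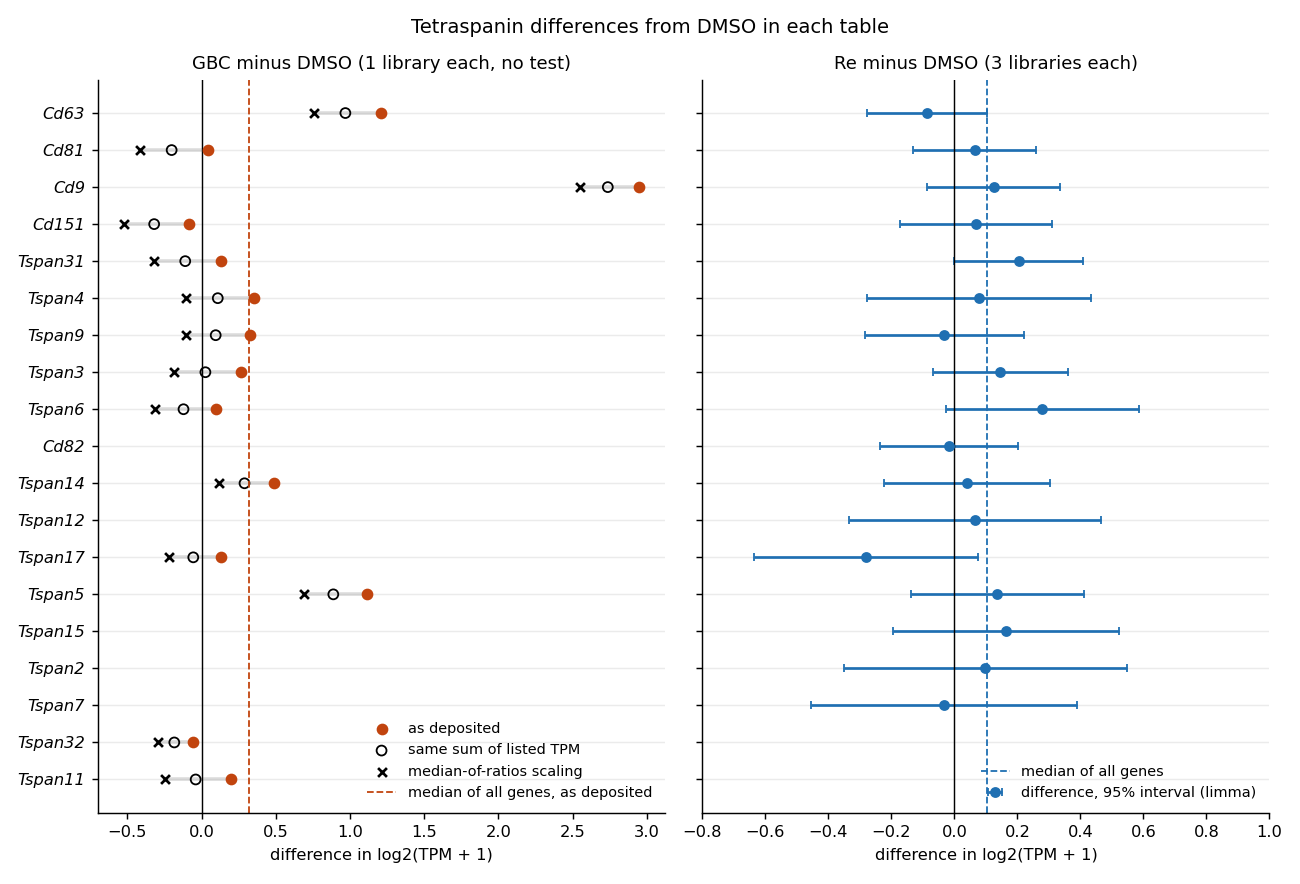
Difference in log2(TPM + 1) for each member averaging 1 TPM or more in that table, GBC minus DMSO on the left as deposited and after 2 scalings, and Re minus DMSO on the right with 95% confidence intervals from limma; dashed lines mark the median over all genes at that level. On the left Cd9, Cd63, Tspan5 and Tspan14 lie above 0 under each scaling, and on the right every interval includes 0.

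Grouped by role, the members took different shares of the pool in the 2 tables. Cd9, Cd81, Cd82 and Cd151 together held 35.3% of the pool in GBC and 37.7% in its DMSO library, and 45.4% to 46.8% in Re and 44.1% to 45.5% in DMSO. Cd63 held 16.6% in GBC and 9.63% in DMSO, and 26.8% to 27.8% in Re and 28.3% to 30.8% in DMSO. The TspanC8 branch held 7.74% in GBC and 5.75% in DMSO, and 3.78% to 4.34% in Re and 4.15% to 4.46% in DMSO. Tspan4, Tspan9, Tspan11 and Tspan18 held 20.5% in GBC and 22.8% in DMSO, and 7.89% to 7.998% in Re and 7.24% to 9.22% in DMSO. Tspan3, Tspan6, Tspan7, Tspan12, Tspan13 and Tspan31 held 19.4% in GBC and 23.5% in DMSO, and 13.8% to 14.8% in Re and 12.4% to 13.5% in DMSO. Members known from blood cells were at most 0.488% of the pool in any library. The 3 Re shares lay below the 3 DMSO shares for Cd63 and above them for the group of Tspan3, Tspan6, Tspan7, Tspan12, Tspan13 and Tspan31. In level as deposited, the Cd63 values of Re and DMSO overlapped. No count over all genes was made for such shares, while in level 15% of all genes did not overlap. Shares of 1 pool are not independent of each other, and these were not tested.

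**Figure D4:**
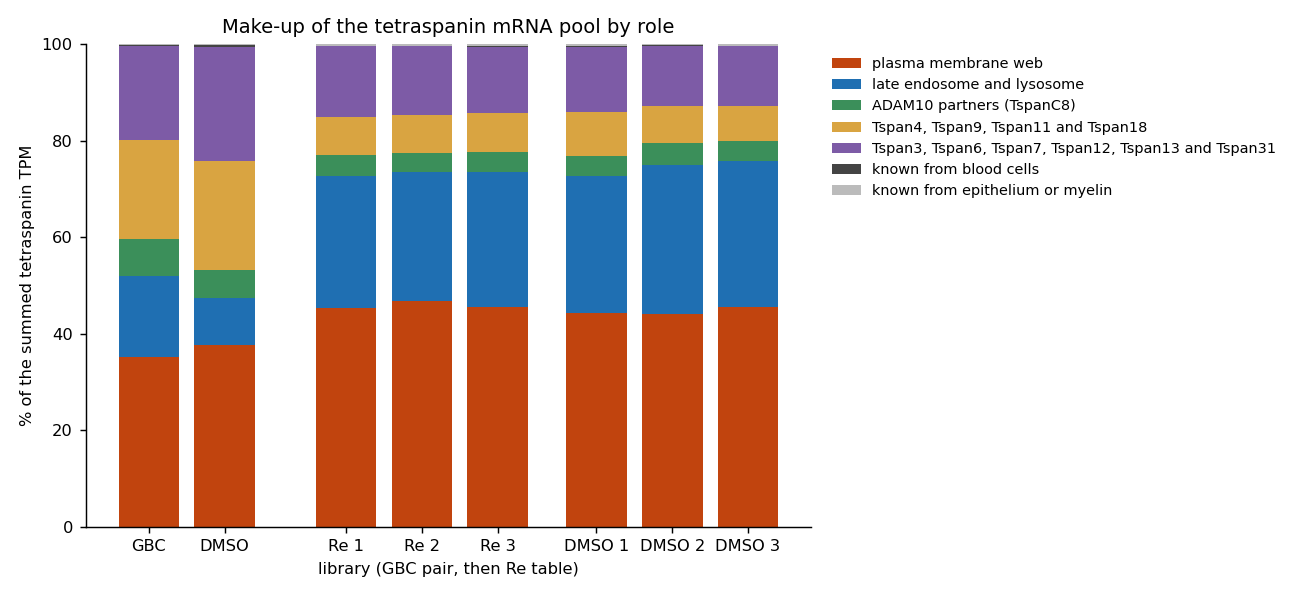
Share of the summed tetraspanin TPM, in percent, held by each group of members in every library, with the GBC pair on the left, then the 3 Re and the 3 DMSO libraries. Groups are named by a role or, where none was given, by their members. Cd63 holds 26.8% to 30.8% in the Re table against 16.6% in GBC and 9.63% in its DMSO library, while the group of Tspan4, Tspan9, Tspan11 and Tspan18 holds 20.5% in GBC, 22.8% in its DMSO library and 7.24% to 9.22% in the Re table.

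Next came 5 gene lists: tetraspanin partner proteins, exosomes and multivesicular bodies, lysosome membrane, palmitoylation and glycosylation, and myoblast fusion. Only the first is a list of partners. Of 12 partner protein genes averaging 5 TPM or more, 0 differed by at least 1, and the median over 15 at 1 TPM or more was 0.32. After Adam10 the largest differences at that level were in the integrin subunit genes Itgb1, at 62.0 TPM in GBC and 35.8 TPM in DMSO, and Itga6, at 13.5 and 8.36 TPM. Of 19 exosome and multivesicular body genes 1 was past that difference, Vps4b, an ATPase that releases the budding machinery, at 15.2 TPM in GBC and 5.87 TPM in DMSO, with a median of 0.25 over 21 genes. Of 6 lysosome membrane genes 0 were past it, with Tmem192 at 8.03 and 3.88 TPM, and a median of 0.35 over 7. Of 9 enzymes of palmitoylation and glycosylation 1 was past it, Lypla1, a thioesterase that removes palmitate, at 12.3 TPM in GBC and 5.02 TPM in DMSO. The median over 11 enzymes was 0.41. Of the 2 myoblast fusion genes at that level, Cdh2 and Myof, 0 were past it, with differences of 0.92 and 0.77. The median over 5 fusion genes was 0.66. Each of these counts stands beside the 5.21% of all genes given above, and each median beside 0.320 over all genes. Between Re and DMSO limma called 0 of 16 tested genes of the partner list, 0 of 21 of the exosome list, 0 of 8 of the lysosome list, 0 of 11 enzymes and 0 of 7 fusion genes, and the smallest unadjusted p was that of Pld2, a phospholipase, with a difference of 0.39 and an adjusted p of 0.687. Of the 4 other genes with the tetraspanin fold, Upk1a, Upk1b and Prph2 were under 1 TPM in all 8 libraries and Rom1, of photoreceptors, was at 0.84 TPM in GBC and 1 TPM in DMSO, and at 4.56 to 5.54 TPM in Re and 3.42 to 5.32 TPM in DMSO.

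Gene structure was shared across the family. In GENCODE M21 all 27 are protein-coding, with a longest coding length of 612 to 996 bases and a median of 747, and 26 of 27 have 6 to 9 coding exons. RefSeq places them on 12 chromosomes. Tspan18 and Cd82 on chromosome 2, Tspan11 and Tspan9 on chromosome 6, and Tspan32 and Cd81 on chromosome 7 are neighbours with 0 protein-coding genes in between, and Cd151 and Tspan4 on chromosome 7 have 1, Polr2l, in between. Some neighbours differed widely in level: in the Re libraries Cd81 was at 193 to 212 TPM and Tspan32 at 0.21 to 0.52 TPM, and Cd82 at 19.8 to 22.6 TPM and Tspan18 at 0.03 to 0.08 TPM. Others did not: in the pair Cd82 and Tspan18 were both at or under 0.01 TPM, and Cd151 and Tspan4 were abundant in both tables.

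Promoters are shown for Cd9 and Tspan5, which were both higher in the GBC library, and for Cd82 and Tspan11, which were each near 0 in 1 of the tables. RefSeq promoter sequences on GRCm38.p6 matched 26 of the 27 members by symbol, and the first listed start of each gene was used. The only listed start of Cd63, also past a difference of 1 in the pair, lies downstream of the gene's first base in RefSeq, so its window is not shown; it holds no match to the motifs below and is counted among the 26. Each line gives the 250 bases before the start, 5′ to 3′ on the gene's strand, at chr6:125494761-125495010 (minus) for Cd9, chr3:138741958-138742207 (plus) for Tspan5, chr2:93462951-93463200 (minus) for Cd82 and chr6:127887372-127887621 (plus) for Tspan11. Capitals mark the E-box CANNTG, the motif bound by MyoD and related factors, and the GC box, written GGGCGG.
Cd9: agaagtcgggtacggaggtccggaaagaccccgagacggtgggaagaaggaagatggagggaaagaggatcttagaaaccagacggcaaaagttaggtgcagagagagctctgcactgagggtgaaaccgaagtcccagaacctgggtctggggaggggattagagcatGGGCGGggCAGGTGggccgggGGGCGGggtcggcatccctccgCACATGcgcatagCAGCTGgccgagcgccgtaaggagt
Tspan5: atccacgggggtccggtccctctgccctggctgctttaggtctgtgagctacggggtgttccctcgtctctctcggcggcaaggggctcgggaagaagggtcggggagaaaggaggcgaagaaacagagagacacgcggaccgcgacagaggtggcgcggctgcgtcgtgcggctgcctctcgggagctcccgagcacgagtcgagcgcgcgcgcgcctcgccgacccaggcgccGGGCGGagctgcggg
Cd82: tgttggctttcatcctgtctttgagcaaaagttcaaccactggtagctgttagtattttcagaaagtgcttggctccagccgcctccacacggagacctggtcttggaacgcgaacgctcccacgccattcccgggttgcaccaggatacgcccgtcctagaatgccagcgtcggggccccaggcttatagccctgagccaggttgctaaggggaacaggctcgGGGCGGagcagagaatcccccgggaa
Tspan11: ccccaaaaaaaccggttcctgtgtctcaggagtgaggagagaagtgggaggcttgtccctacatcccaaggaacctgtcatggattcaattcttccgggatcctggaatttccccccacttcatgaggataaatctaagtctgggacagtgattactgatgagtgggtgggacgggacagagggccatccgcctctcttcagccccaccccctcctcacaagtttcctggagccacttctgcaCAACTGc
The Cd9 window holds 3 E-boxes and 2 GC boxes, that of Tspan5 0 and 1, that of Cd82 0 and 1, and that of Tspan11 1 and 0. These windows have 16, 33, 14 and 4 CpG dinucleotides, in the same order. The motifs were searched on both strands, along with the CCAAT box, the TATA box (letters TATAAA) and the AP-1 site (letters TGACTCA), and the 4 windows shown hold no match to these. Of 26 member promoters 15 hold an E-box, which is 57.7%, against 66.2% of all 32851 promoters, and 14 hold a GC box, which is 53.8%, against 32.7%. The 32851 are all listed starts and were not reduced to 1 a gene, as the members were. Member windows were also richer in CpG, with a median of 12.5 against 6. Their median content of G and C was 58.6%, against 52.4%. For the CCAAT box the shares are 26.9% of members against 33.8%, for the TATA box, held by Tspan12, 3.85% against 12.4%, and for the AP-1 site, held by Tspan15, 3.85% against 4.46%. A match is a run of letters and says nothing of binding.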

How the data were processed

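The authors deposited 2 tables of log2(TPM + 1) per Ensembl gene. STAR, RSEM, GRCh38 and GRCm39 are named, with no version of either tool, per the submitters' processing notes. The sources used here do not say which build served which step or whether counting used strand. Back-transformed, the deposited log2 values were multiples of 0.01 TPM within 2.0e-04. Depth is unknown, so no counting interval is given.

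Re and DMSO libraries went into limma 3.58.1 (R 4.3.3; two-sided moderated test with trend, pseudocount 1) over genes averaging 1 TPM or more, with Benjamini-Hochberg adjustment at 0.05 over all genes. The GBC pair, 1 library a group, was described by a difference of at least 1 among genes averaging 5 TPM or more. Values in every library are given for members averaging 10 TPM or more in either table, past a difference of 1 in the pair, or among the 3 smallest p in the Re table; of each other list, up to 3 genes by difference in the pair and up to 2 by p in the Re table could be named, and not all are. The members and lists were chosen with earlier results of these data known, and the promoters, Tspan2, Tspan7, Rps16 and other low members after their values were seen. Overlaps and coding length are from GENCODE M21 (GRCm38) and neighbours and promoters from RefSeq (GRCm38.p6), another build than GRCm39. Python 3.11.15, numpy 2.4.6, pandas 2.3.3 and matplotlib 3.10.9 were used. Alternatives were a pseudocount of 0.1, other filters, median-of-ratios scaling, equal sums, limma without trend, omission of each library and a replicate block.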

Additional observations from a re-analysis of the deposited data

How the results depend on the processing

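The call of 0 tetraspanins between Re and DMSO was the same in all 13 alternatives. Over all genes limma called 0 genes in the 7 alternatives with all 6 libraries and 0 to 7 when 1 library was left out (4, 6 and 0 for DMSO replicates 1 to 3, and 3, 1 and 7 for Re replicates 1 to 3). Members with no overlap, 1 as deposited, numbered 3 of 17 after median-of-ratios scaling (10.2% of all genes), 4 after rescaling to the same sum (11.4%) and 2 to 7 with 1 library left out (21.7% to 37.2%). The members' median was -0.0400 after median-of-ratios scaling and -0.0151 to 0.106 with 1 library left out. In the GBC pair the count past the difference was 1 after median-of-ratios scaling and 1 after rescaling to the same sum, with a members' median of -0.203 and -0.00712, and it was 3 with a pseudocount of 0.1 (6.84% of all genes), with a filter of 1 TPM (4.75%) and with a difference of 0.5, which 29.0% of all genes passed against 27.3% of the members. Small differences between Re and DMSO, none of them called, changed sign in 18 cases. After median-of-ratios scaling Cd151 was at -0.0444, Cd81 at -0.0491, Tspan12 at -0.0400, Tspan14 at -0.0667 and Tspan4 at -0.0335, and after rescaling to the same sum Cd81 was at -0.00229 and Tspan14 at -0.0227. With 1 library left out the difference ran from -0.00409 to 0.129 for Cd151, -0.0651 to 0.0273 for Cd82, -0.0412 to 0.272 for Tspan12, -0.0520 to 0.101 for Tspan14, -0.0164 to 0.255 for Tspan4 and -0.0830 to 0.0572 for Tspan9. It ran from 0.0602 to 0.183 for Cd9, 0.0700 to 0.216 for Tspan5, 0.149 to 0.362 for Tspan6 and -0.378 to -0.132 for Tspan17, with no change of sign. The cause of these changes was not tested. Depth is unknown, so how far it limits low members cannot be said.

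With the replicate block limma called 0 members and 0 genes, with 810 genes at an unadjusted p under 0.05 in place of 745, and 1 member in place of 0. Same-numbered Re and DMSO libraries had correlations of their deviations of 0.163, 0.0771 and 0.0168. The first and the second Re library each correlated best with the DMSO library of the same number. The third Re library correlated best with the second DMSO library (0.0945). With 3 libraries a group, these values cannot decide whether same-numbered samples were handled together. The labels give only numbers, and those used here are from the sample titles. In the sample descriptions the Re libraries carry other numbers than the DMSO libraries, so no numbers match there.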
